A study of Homo sapiens with 16 samples.

Results

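U-251 MG cells, an established human glioblastoma line, were treated with simvastatin and irinotecan together, and their poly(A) RNA was compared with that of cells given the solvent DMSO. The libraries were chosen by their treatment labels: 4 of the combination and 4 of DMSO, out of 16 in the series. The combination held simvastatin at 0.06 µM and irinotecan at 0.6 µM, the doses also given alone to the 4 simvastatin and the 4 irinotecan libraries. Every culture was grown in high-glucose medium with fetal bovine serum, and treatment began 24 h after seeding and lasted 48 h. A single line in culture has no host cells around it, and nothing in the labels tells if libraries of 1 group are separate cultures. The p-values therefore measure the spread between these libraries, which may be technical.

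Simvastatin, a statin, lowers the flow through the mevalonate pathway. That pathway supplies cholesterol and also the prenyl groups that anchor small GTPases such as Ras to membranes. Cells that run short of sterols are known to release the transcription factor SREBP2, which raises the enzymes of the pathway. Irinotecan is a prodrug that carboxylesterases turn into an inhibitor of topoisomerase I, and the trapped enzyme leaves breaks where replication forks meet it. Such breaks are known to slow the cell cycle through checkpoint kinases. TGF-β, named in the title of the series, is secreted in a latent form and signals through paired receptors to SMAD proteins, and in glioblastoma it is known for driving invasion and matrix genes.

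The combination changed many genes, most of them by little. Counts of 16647 expressed genes, out of 58243 gene IDs, were tested with edgeR. Called genes are those whose p, adjusted over all tested genes by Benjamini and Hochberg, was under 0.05. Called were 4677 genes (28.1%), of which 2518 were higher (15.1%) and 2159 lower (13.0%) than with DMSO. The median absolute log2 fold change of the called genes was 0.28, where 1 is a doubling. At least 2-fold changes were found in 315 called genes (1.89%), 223 of them higher and 92 lower, and 14 rose while 1 fell at least 4-fold. The combination libraries all lay above all DMSO libraries in 2449 genes and all below in 1919, together 26.2% of those tested. Levels are given in CPM, counts scaled to library size with TMM factors, and fold changes as log2 values with their standard error.

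**Figure D1:**
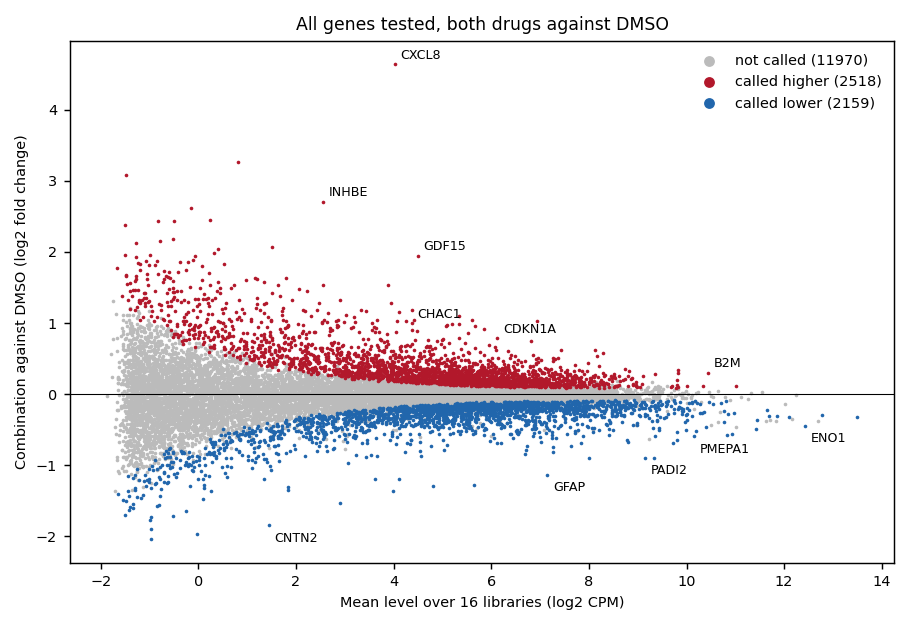
Log2 fold change of the combination against DMSO (vertical axis) against mean level in log2 CPM (horizontal axis) for the 16647 genes tested. Each point is 1 gene, coloured where it was called higher (2518) or lower (2159), and most called genes lie within 1 log2 unit of no change.

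The share of genes called rose with level. At a mean log2 CPM under 0, 8.64% of genes were called, against 31.3% between 2 and 5 and 48.2% above 8. A gene that missed the threshold at a low level therefore was not measured as closely as a highly expressed one. A poly(A) library holds shares of RNA and not amounts, so a fall of every transcript together would not be seen.

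The 8 libraries were alike in depth, with 24478638 to 31932971 counts with DMSO and 24159673 to 27502415 with the combination. The 50 most abundant genes took 14.0% ± 0.66 of the counts with DMSO and 12.3% ± 0.26 with the combination (SD, n = 4 each). This share was lower in every combination library than in every DMSO library, with the smallest exact permutation p that 4 against 4 allow (two-sided, p = 0.0286). The TMM factors moved with it, at 0.971 to 0.987 with DMSO and 1.009 to 1.022 with the combination. Scaled by library sizes alone, 3868 genes were called higher and 1401 lower, so 73.4% of the calls were higher in place of 53.8%, and the median gene shifted by 0.058. Under that scaling 7 of the 269 genes named by rule lost their call and 5 gained one. Of the medians of the 49 gene lists below, 42 moved by at least their SD between combination libraries, and 7 did not. The number of members called higher changed more than 1.5-fold in 14 lists, and the number called lower in 12. List medians near 0 therefore depend on the scaling. Mitochondrially encoded genes held 3.68% ± 0.95 of the counts with DMSO and 3.03% ± 0.46 with the combination (exact permutation p = 0.314).

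Markers of astrocytes were expressed in part. Summed over 7 astrocyte markers the level was 461 ± 21.9 CPM of the library totals with DMSO and 333 ± 11.8 with the combination (SD, n = 4, exact permutation p = 0.0286). Called lower were GFAP, SLC1A3 and SLC1A2, while GJA1 and S100B were not called, and the astrocyte genes AQP4 and ALDH1L1 had 6 and 7 counts over the 4 DMSO libraries and 4 and 12 over the combination libraries. Of 10 immune markers CSF1R had 135 and 151 counts and CD14 48 and 28, DMSO first, the other 8 had 6 or fewer over either group, and C1QA and CD3E had none. Of the oligodendrocyte markers CNP had 33457 and 32931 counts, nearly the whole sum, and MOG 98 and 102, while MAG and SOX10 had none. No immune or oligodendrocyte marker was called. The summed markers of neurons were 115 ± 8.99 and 108 ± 3.41 CPM (exact permutation p = 0.286), those of oligodendrocytes 304 ± 18.4 and 323 ± 13.0 CPM (exact permutation p = 0.114) and those of endothelium 4.56 ± 0.28 and 6.71 ± 0.27 CPM (exact permutation p = 0.0286), DMSO first. Among neuronal markers SYT1, SNAP25 and SLC17A7 were called higher and MAP2 and GAD1 lower. Among endothelial markers KDR (387 and 513 counts, DMSO first) and VWF (55 and 130) were called higher and CLDN5 lower (48 and 16), whereas PECAM1 had 3 and 7 counts and CDH5 7 and 10. The part of such cells in the results was not tested. Of 9 such exact tests of marker sums and shares, 5 had the smallest p, which adjusted over the 9 is 0.051. In bulk RNA, fewer cells of a kind and less RNA of that kind per cell cannot be told apart.

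The largest rise was that of CXCL8, the gene for interleukin-8, a chemokine that draws neutrophils (GRCh38 chromosome 4, 73740506 to 73743716). It stood at 1.48, 0.870, 1.07 and 0.775 CPM in the 4 DMSO libraries and at 27.0, 23.6, 27.9 and 25.6 CPM in the 4 combination libraries. Every combination library lay more than 10 times above every DMSO library, and the log2 fold change was 4.63 ± 0.23 (adjusted p = 1.06e-09). INHBE, which encodes the activin subunit βE and is known to respond to cell stress, followed among genes above a mean log2 CPM of 1 (GRCh38 chromosome 12, 57452323 to 57459280). It read 1.55, 1.49, 1.11 and 1.65 CPM with DMSO and 10.2, 8.55, 8.04 and 11.4 CPM with the combination, again with no overlap (log2 fold change 2.71 ± 0.15, adjusted p = 6.05e-14).

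A promoter sequence from RefSeq on GRCh38.p14 is shown for single genes of groups that moved, beginning with CXCL8. Each shown window holds a motif match, and these genes are not typical of their groups in that respect. The windows are the 250 bases before the start, read 5′ to 3′ on the strand of the gene. They are CXCL8 at chr4:73740319-73740568 (plus strand), CHAC1 at chr15:40953221-40953470 (plus), HERPUD1 at chr16:56931892-56932141 (plus), XBP1 at chr22:28800570-28800819 (minus) and IFIT3 at chr10:89327747-89327996 (plus). Capitals mark matches, on either strand, to the motifs named after the sequences.
CXCL8: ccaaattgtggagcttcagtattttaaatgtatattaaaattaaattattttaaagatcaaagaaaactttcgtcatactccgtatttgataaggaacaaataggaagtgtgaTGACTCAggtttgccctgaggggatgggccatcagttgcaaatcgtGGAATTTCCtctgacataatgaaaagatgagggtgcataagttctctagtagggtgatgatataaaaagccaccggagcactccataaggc
CHAC1: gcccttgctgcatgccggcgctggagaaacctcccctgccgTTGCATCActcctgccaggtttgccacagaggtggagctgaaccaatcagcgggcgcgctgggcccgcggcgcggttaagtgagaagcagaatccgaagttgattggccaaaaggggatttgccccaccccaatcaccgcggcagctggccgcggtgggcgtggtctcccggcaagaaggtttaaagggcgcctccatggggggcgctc
HERPUD1: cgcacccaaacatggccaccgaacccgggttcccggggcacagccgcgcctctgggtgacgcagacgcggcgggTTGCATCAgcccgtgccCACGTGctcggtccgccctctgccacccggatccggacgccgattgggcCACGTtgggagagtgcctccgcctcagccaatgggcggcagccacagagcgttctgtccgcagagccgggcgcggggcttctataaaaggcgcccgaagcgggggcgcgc
XBP1: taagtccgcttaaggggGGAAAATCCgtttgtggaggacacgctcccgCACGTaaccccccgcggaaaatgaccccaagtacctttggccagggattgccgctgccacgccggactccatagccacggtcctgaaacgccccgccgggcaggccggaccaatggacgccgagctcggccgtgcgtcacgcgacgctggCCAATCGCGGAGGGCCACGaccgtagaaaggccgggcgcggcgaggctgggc
IFIT3: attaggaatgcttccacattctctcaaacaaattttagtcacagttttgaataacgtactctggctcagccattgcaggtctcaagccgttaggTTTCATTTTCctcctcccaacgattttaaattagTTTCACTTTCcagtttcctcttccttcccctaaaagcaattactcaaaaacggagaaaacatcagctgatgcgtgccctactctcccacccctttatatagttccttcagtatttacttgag

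CXCL8 held an AP-1 match (TGANTCA, in 6.60% of all 27305 promoter windows) and an NF-kB match (GGANTTTCC, 1.47%). CHAC1 and HERPUD1 held the composite site of C/EBP and ATF factors (TGATGNAA, 3.19%), which the stress factor ATF4 is known to bind. HERPUD1 and XBP1 held the core of the hypoxia response element (ACGTG, 18.7%), and XBP1 held the ER stress element (0.0806%) as well as an NF-kB match. IFIT3 held matches to the interferon-stimulated response element (3.07%). Hypoxia element and ER stress element can share bases, since both hold CACG. A match describes the letters in a window and is no evidence that a factor bound there. Of 20 windows of the integrated stress response, a list described below, 2 held the C/EBP-ATF site, and those of SESN2 and CTH did not. The ER stress element was in 6 of 23 windows of the unfolded protein response. An E2F site (TTTGGCGC, in 0.553% of all windows) was in 5 of 35 windows of replication genes. Lists with windows for under 80% of tested members are left out. Windows were found for 207 of the 269 genes named by rule, not for INHBE or GFAP, and for 69.8% of tested genes. That is too few for shares over all called genes. Some windows were found through a synonym and may belong to another gene, as those for ACTB (on chromosome 2) and SH3BGR (on chromosome X). The 207 and the 69.8% are therefore upper limits.

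Genes of secreted factors, receptors and a channel were among the next largest rises. GDF15, a stress cytokine of the TGF-β superfamily, went from 10.1, 7.95, 8.65 and 9.46 CPM to 35.2, 35.1, 33.8 and 35.6 CPM (log2 fold change 1.94 ± 0.10). KCNK6, a background potassium channel, went from 1.30, 0.952, 1.11 and 1.03 CPM to 4.22, 5.00, 4.29 and 4.97 CPM (2.07 ± 0.17). GPRC5A, an orphan receptor that retinoic acid induces, read 8.32, 7.58, 6.71 and 7.33 CPM with DMSO and 20.6, 22.7, 21.1 and 22.9 CPM with the combination (1.54 ± 0.08). In all 3 genes the lowest combination library lay above the highest DMSO library. HBEGF, a ligand of the EGF receptor, rose by 1.53, FST, which binds and blocks activins, by 1.53, TRAF1, an adaptor of TNF receptors, by 1.45, and RAET1L, a ligand of the immune receptor NKG2D, by 1.63. Above a mean log2 CPM of 1, the remainder of the 15 largest rises were those of RYR2 (1.63), DNAJC12 (1.62), SH3BGR (1.58), LIPH (1.48), GDF6 (1.43) and SMPDL3B (1.38).

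Below that level the folds were as large and the counts few. TNFRSF9, a costimulatory TNF receptor, rose from 0.341 to 3.33 CPM on average, a fold of 9.63, and TGM2, a transglutaminase that crosslinks matrix, from 0.227 to 1.43 CPM, a fold of 6.12. Both were picked after their values were seen. The other genes past 4-fold under the level filter were DMBT1, PACSIN1, TRPV3, CREB3L1, KRT6B, CDH15, AKR1C1, KRT16 and the pseudogene TATDN2P3, and the antisense gene AC005544.1 fell by 2.03 on the log2 scale. Whether the counting used strand is not given in the sources used here, so reads of an antisense gene cannot be told from those of its partner.

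Above a mean log2 CPM of 1, CNTN2 and KCNIP1 led the falls. CNTN2, a cell adhesion protein of axons (GRCh38 chromosome 1, 205042937 to 205078284), read 4.43, 5.09, 4.62 and 4.13 CPM with DMSO and 1.18, 0.670, 1.87 and 1.30 CPM with the combination (log2 fold change -1.84 ± 0.19, adjusted p = 5.36e-09). KCNIP1, a calcium sensor that binds potassium channels, went from 12.4, 10.6, 12.4 and 11.6 CPM to 4.11, 3.27, 4.18 and 4.68 CPM (-1.53 ± 0.11). In both genes no combination library reached the lowest DMSO library. ZNF423, a zinc finger factor that partners SMADs in BMP signalling, fell (-1.37 on the log2 scale), as did the semaphorin SEMA5B (-1.31), its kind of receptor PLXNA4 (-1.28), the helicase PIF1 (-1.29) and PAPPA, a protease that frees insulin-like growth factors (-1.20). Further down were LINC02152 (-1.19), EDN2 (-1.01), SCART1 (-0.97), PADI4 (-0.96), HYPK (-0.93) and GNRH1 (-0.93). RTEL1-TNFRSF6B (-1.04) is a readthrough gene whose reads overlap those of its neighbours, as HYPK and GNRH1 overlap other genes, so those values are uncertain.

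GFAP, the glial filament protein that defines astrocytes, had the smallest p of all genes (GRCh38 chromosome 17, 44903161 to 44916937). It stood at 201, 205, 215 and 189 CPM with DMSO and at 88.6, 88.8, 94.9 and 96.0 CPM with the combination, a log2 fold change of -1.14 ± 0.04 (adjusted p = 8.24e-19). The groups were far from overlapping, with every combination library under 100 CPM and every DMSO library above it. Among the 10 smallest p-values 8 were falls. These included PADI2, which converts arginine to citrulline in proteins (-0.90), the linker histone gene H1F0 (-0.89), the heparan sulfate sulfotransferase HS3ST3A1 (-0.84), the calcium channel subunit CACNG4 (-0.73), the integrin ITGB4 (-0.65), the neurofilament NEFL (-0.68) and BVES (-0.90). The rises among them were GPRC5A and KDELR3, a receptor that returns proteins to the endoplasmic reticulum (1.09 ± 0.06).

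Ranked by the change in CPM, other genes stood first. The cytoskeletal actins ACTB (12970.0 to 10409 CPM on average) and ACTG1 (4951 to 3972) were among the 10 genes that lost most. So were the glycolytic genes ENO1, PKM, GAPDH and PGK1, the hyaluronan receptor CD44 (-0.48 on the log2 scale), the fatty acid desaturase SCD (-0.55), the chemokine CXCL14 (-0.57) and the annexin ANXA2 (-0.36). The largest gain was that of B2M, which pairs with HLA class I chains, from 1244 to 1535 CPM (0.30 ± 0.03). With it rose KDELR2 (0.34) and CALU (0.29) of the secretory pathway, the RNA binding proteins HDLBP (0.30) and PABPC1 (0.20), OAT, which turns ornithine over (0.58), ARF4 (0.63), TXNIP, a brake on glucose uptake (0.54), and PSAP (0.11). PSAP lost its call without DMSO replicate 4 (adjusted p = 0.078).

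Of 14 tested TGF-β ligands and proteins that hold them latent or free them, 1 rose and 3 fell (28.6% called, median log2 fold change 0.00). Over all genes 28.1% were called, 15.1% higher and 13.0% lower, with a median of 0.00. These shares belong beside the counts of every list below. They depend on level, with 36.7% of all genes called at a mean log2 CPM of 5 to 8. TGFB1 read 137, 124, 135 and 131 CPM with DMSO and 139.6, 135, 126 and 131 CPM with the combination, and the groups overlapped (0.01 ± 0.04, adjusted p = 0.87). TGFB2 fell (log2 fold change -0.21, adjusted p = 0.024), a call that ended on leaving out any 1 of DMSO replicates 3 and 4 and combination replicates 1, 2 and 4 (adjusted p 0.055 to 0.087) and on scaling by library sizes alone. TGFB3 (-0.32 ± 0.07) and the integrin subunit ITGB5 (-0.19), which helps to free the ligand, fell too. The member that rose was THBS1, thrombospondin, an activator of latent TGF-β (0.41 ± 0.04). ITGB8, an integrin subunit that frees the ligand in the brain, read -0.23 and did not pass in the main edgeR fit (adjusted p = 0.067). It passed with DESeq2 (adjusted p = 0.039) and with edgeR on the 8 compared libraries alone (adjusted p = 0.043). Other edgeR fits that called it used a CPM of at least 1 (adjusted p = 0.037), a replicate block, or left out DMSO replicate 1 (0.047) or combination replicate 3 (0.014). The remaining settings did not call it.

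Of 9 TGF-β receptors tested, 4 rose and 1 fell (median 0.08). TGFBR2, the receptor that binds the ligand, stood at 87.0, 86.8, 87.9 and 82.5 CPM with DMSO and 101, 99.8, 111 and 99.6 CPM with the combination, all above DMSO (0.26 ± 0.04, adjusted p = 1.82e-05). TGFBR1, the kinase that carries the signal on, read 60.9, 62.7, 63.6 and 62.0 and 60.4, 60.1, 60.0 and 56.7 CPM, which did not pass although every combination library lay just below DMSO (-0.07 ± 0.05, adjusted p = 0.31). ENG (endoglin, 0.39) and ACVR1B (0.21) rose and ACVR2B, an activin receptor, fell (-0.42). The coreceptor TGFBR3 rose by 0.39 (adjusted p = 0.042), but without any 1 library other than combination replicate 1 the call was lost (adjusted p 0.053 to 0.11), as it was with DESeq2 (adjusted p = 0.077). No receptor was called with a minimum fold of 1.2.

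Among 18 SMADs and their regulators 1 rose and 4 fell (median 0.02). The share called, 27.8%, was near the 28.1% of all genes. SMAD7, the inhibitory SMAD that TGF-β itself induces as feedback, was the member that rose: 0.468, 0.373, 0.197 and 0.710 CPM with DMSO and 1.10, 1.18, 1.15 and 1.10 CPM with the combination (1.33 ± 0.30, adjusted p = 9.89e-04). Its level is low, yet no library of the combination fell within the DMSO range. PMEPA1, another feedback inhibitor and a usual TGF-β target, stood at 1334 to 1464 CPM with DMSO and fell to 909 to 945 CPM with the combination (-0.59 ± 0.03). SMAD6 (-0.46) and the corepressor TGIF2 (-0.27) fell as well. SMAD2, a carrier of the signal, was called lower (-0.13, adjusted p = 0.037), and lost the call without any 1 library other than combination replicates 2 and 3 (adjusted p 0.053 to 0.13). SMAD3 (0.06, adjusted p = 0.23) and SMAD4 (-0.06, adjusted p = 0.52) did not pass.

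Of 27 genes known to respond to TGF-β, 6 rose and 8 fell (median -0.07), so they moved in both directions. CTGF (-0.20), the HLH factors ID1 (-0.39) and ID3 (-0.33) and the repressors ZEB1 (-0.18) and ZEB2 (-0.28) fell. Against these, COL1A1, the main fibrillar collagen, rose from 24.7, 23.3, 26.3 and 24.1 CPM to 42.5, 43.7, 39.9 and 41.3 CPM (0.77 ± 0.06). FN1 (fibronectin, 0.44), JUNB (0.45) and the repressor SNAI2 (0.38) rose beside it. The markers of fibroblasts and pericytes, of which COL1A1 is 1, summed to 31.0 ± 0.82 CPM of the library totals with DMSO and 51.1 ± 1.77 with the combination (SD, n = 4, exact permutation p = 0.0286), with COL1A1 and PDGFRB (216 and 358 counts, DMSO first) called higher and ACTA2 and RGS5 not called. DCN and LUM, which define fibroblasts, had 8 and 0 counts over the DMSO libraries and 16 and 2 over the combination libraries. The part of such cells in the result was not tested.

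Activins, inhibins and bone morphogenetic proteins, the other branch of the superfamily, rose where they changed, with 1 exception. Of 20 tested, 9 rose and 1 fell (median 0.33). Beside INHBE, GDF15 and FST, these were the BMP antagonist NOG (1.04 ± 0.06), BMP4 (1.01 ± 0.11), BMP6 (0.55), GDF11 (0.58), the activin binder FSTL3 (0.75) and the procollagen protease BMP1 (0.13). Both ligands and their antagonists were thus among the genes that rose. BMP4 read 4.11, 3.35, 3.91 and 3.71 CPM with DMSO and 7.53, 7.88, 7.75 and 7.33 CPM with the combination, with no overlap. The receptor BMPR1B fell (-0.20).

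Sterol synthesis fell in part. Of 21 cholesterol synthesis enzymes 11 fell and 1 rose (median -0.13), though none kept a call with a minimum fold of 1.2. HMGCS1, an early enzyme of the pathway, stood at 122, 138, 139 and 127 CPM with DMSO and 103, 102, 103 and 113 CPM with the combination (-0.32 ± 0.05, adjusted p = 9.41e-06). The separation of the groups was narrow beside that of the stress genes. DHCR7 (-0.28), ACAT2 (-0.25), LSS (-0.24) and FDFT1 (-0.23) fell by like amounts, and TM7SF2 rose (0.27).

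Of 18 genes that sense and move sterols 7 rose and 3 fell. SREBF2, which encodes SREBP2, and its retention factor INSIG1 fell (-0.31 and -0.30). Among the rises were genes of sterol export known as liver X receptor targets. ABCG1 went from 0.144, 0.207, 0.237 and 0.161 CPM to 0.950, 0.827, 0.613 and 0.529 CPM (1.95 ± 0.36), and APOE from 1.80, 1.82, 2.41 and 1.52 CPM to 3.80, 3.35, 3.06 and 3.95 CPM (0.91 ± 0.17). In both, every combination library lay above DMSO. ABCA1 (0.42), the sterol esterifying enzyme SOAT1 and the lysosomal carriers NPC1 (0.26) and NPC2 (0.17) rose with them.

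Fatty acid synthesis fell in 9 of 15 genes, and 2 rose (median -0.19). SCD read 2316, 2219.8, 2423 and 2364 CPM with DMSO and 1638, 1563, 1577 and 1575 CPM with the combination (-0.55 ± 0.04, adjusted p = 3.61e-13). The desaturases FADS1 (-0.39) and FADS2 (-0.33), the synthase FASN (-0.20) and their regulator SREBF1 (-0.24) fell, and ACSL1, which activates fatty acids, rose (0.51).

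Most genes of the integrated stress response rose. In this pathway a kinase phosphorylates the initiation factor eIF2, most translation slows, and ATF4 raises genes of amino acid supply and redox balance. Of 23 genes 15 rose and 1 fell (median 0.35), and 9 rose with a minimum fold of 1.2. CHAC1, which degrades glutathione, stood at 14.4, 11.1, 11.8 and 13.8 CPM with DMSO and 27.8, 25.6, 24.0 and 25.0 CPM with the combination (0.99 ± 0.08, adjusted p = 3.85e-10). SESN2, a brake on mTORC1, went from 25.5, 23.4, 22.1 and 24.0 CPM to 51.2, 43.9, 47.3 and 45.5 CPM (0.98 ± 0.06). No library of the groups overlapped in either gene. CTH, which makes cysteine (0.88), NUPR1 (1.04), JDP2 (0.94), the AKT binding pseudokinase TRIB3 (0.96), the death factor DDIT3 (0.62), ATF3 (0.43) and the kinase EIF2AK3 (0.36) rose too. VLDLR fell (-0.14). The eIF2 phosphatase subunit PPP1R15A, a usual member of the response, read 0.07 and did not pass.

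Amino acid supply rose with it: 16 of 22 genes of synthesis and transport were higher and 1 lower (median 0.21). ALDH1L2, of mitochondrial folate metabolism, went from 4.93, 3.89, 4.54 and 5.46 CPM to 10.9, 10.0, 9.95 and 7.86 CPM (1.03 ± 0.12). Its partner MTHFD2 rose by 0.62, while MTHFD1L fell (-0.29). The carriers SLC43A1 (1.48 ± 0.33), SLC6A9 (0.48) and SLC1A4 (0.31) and the enzymes PYCR1 (0.37) and GPT2 (0.27) rose. SLC43A1 lay under a mean log2 CPM of 1, where counts are few. Asparagine synthetase ASNS, a classical ATF4 target, read 0.08 (adjusted p = 0.88). Of 20 cytosolic aminoacyl-tRNA synthetases, which load amino acids, 7 rose and none fell (median 0.07), led by WARS (0.51) and GARS (0.35).

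The unfolded protein response moved in parts. Of 24 genes 8 rose (5 without DMSO replicate 4 or combination replicate 1) and 4 fell (median 0.03). HERPUD1, of ER-associated degradation, rose from 79.9, 74.9, 71.9 and 76.3 CPM to 109, 102, 105 and 105 CPM (0.47 ± 0.05), and so did the sensor ERN1 (0.55), its target XBP1 (0.28) and the cochaperone DNAJB9 (0.33). The abundant chaperones HSP90B1 (-0.14), PDIA4 (-0.17), PDIA3 (-0.12) and CALR (-0.12) fell. HSPA5, the master chaperone, was called higher at 0.12 but not without any 1 of replicates 2 and 4 of DMSO and 1 and 4 of the combination (adjusted p 0.052 to 0.10).

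Genes known as p53 targets rose where they changed, with 1 exception. U-251 MG cells are known to carry a mutant p53. Of 29, 13 rose and 1 fell (median 0.09). CDKN1A, the inhibitor p21 that halts the cycle (GRCh38 chromosome 6, 36676460 to 36687339), stood at 51.5, 49.98, 52.9 and 51.7 CPM with DMSO and 95.4, 84.1, 88.0 and 87.9 CPM with the combination (0.79 ± 0.04, adjusted p = 1.06e-14). The groups were well apart. TP53I11 rose by 1.41 ± 0.27, the death receptor FAS by 0.65, TNFRSF10B by 0.40, the nuclease AEN by 0.29 and PMAIP1 (NOXA) by 0.45. TP53I11 lay under a mean log2 CPM of 1, where counts are few. PLK2 fell (-0.26). MDM2, the ubiquitin ligase that p53 induces and that restrains it, read -0.09 (adjusted p = 0.16), GADD45A 0.12 (adjusted p = 0.098) and DDB2 -0.08 (adjusted p = 0.21), none of which passed. Several of the 13, such as SESN2 and TNFRSF10B, are also known to respond to ATF4 or DDIT3.

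Among 15 BCL2 family genes 5 rose and 1 fell. BIK, a BH3 killer protein, went from 1.69, 1.16, 1.66 and 1.39 CPM to 2.24, 2.56, 3.28 and 2.53 CPM (0.85 ± 0.18), and BID rose by 0.30. BBC3 (PUMA, 0.49) and the survival gene BCL2L1 (0.13) each lost the call without DMSO replicate 4 (adjusted p 0.087 and 0.094) and without 1 combination library, replicate 1 for BBC3 (0.10) and replicate 4 for BCL2L1 (0.069). MCL1, which protects cells, fell (-0.13). Of 21 death receptors, caspases and their inhibitors 9 rose and 2 fell (median 0.12): CASP10 (1.85 ± 0.42) and the ligand TNFSF10 (TRAIL, 0.44) rose, as did the inhibitor BIRC3 (0.79). CASP10 lay under a mean log2 CPM of 1, where counts are few.

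Replication genes split into rising and falling sets. Of 41, 12 rose and 16 fell (median 0.00). The MCM helicase, which unwinds DNA at forks, fell in each of its subunits. MCM6 went from 182, 185, 184 and 187 CPM to 120.4, 119, 123 and 121 CPM (-0.61 ± 0.03), and MCM2 (-0.22), MCM3 (-0.15), MCM4 (-0.18), MCM5 (-0.55) and MCM7 (-0.19) fell with it. PCNA (-0.31), E2F1 (-0.33) and UHRF1 (-0.20) fell too. By contrast, CDT1, which loads that helicase (0.37), RRM2 of nucleotide supply (0.34), the clamp loader genes RFC3 (0.34) and RFC1 (0.28), ORC6 (0.29) and the repressor E2F7 (0.28) rose. G1 genes other than CDKN1A changed less, CCND3 (0.26) being the next. Of 17 tested, 3 rose and 2 fell, so 29.4% were called, near the 28.1% of all genes. The calls of RBL1 (higher) and of CDK6 and RBL2 (both lower) ended on leaving out 1 library. This held for any 1 of 2 libraries for RBL1, 4 for CDK6 and 5 for RBL2 (edgeR, adjusted p 0.053 to 0.13).

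Mitotic genes fell more often than they rose, 14 against 4 of 37 (median -0.07). KIF20A, a motor of cytokinesis, read 251, 233, 249 and 249 CPM with DMSO and 195, 184, 183 and 173 CPM with the combination (-0.42 ± 0.04). The kinetochore motor CENPE (-0.47), the kinase PLK1 (-0.42), DLGAP5 (-0.36) and CDC20, which starts anaphase (-0.37), fell, and so did cyclin B (CCNB1, -0.14). CDK1 rose (0.30), as did MAD2L1 (0.23) and HMMR (0.15). MKI67, the proliferation marker, stood at 1251, 1150.2, 1417 and 1225 CPM with DMSO and 1049, 1186, 1151 and 974 CPM with the combination and did not pass (-0.21 ± 0.10, adjusted p = 0.15).

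Of 37 DNA repair genes 9 rose and 5 fell. Most of those that rose serve homologous recombination and the Fanconi pathway, which handle broken forks: EXO1 (0.42 ± 0.04), BLM (0.31), BRCA2 (0.24), BRCA1 (0.18), FANCD2 (0.18) and FANCI (0.18). POLQ, of end joining by short homology, rose with them (0.32). Falls were seen in the mismatch protein MSH6 (-0.31), in LIG3 (-0.39) and LIG1 (-0.21), and in the end-binding pair XRCC6 (-0.20) and XRCC5 (-0.15). Among 19 damage signalling genes 4 rose and 4 fell, with CHEK2 higher (0.32) and the mitotic brake WEE1 lower (-0.36).

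TOP1, the enzyme that irinotecan traps, rose slightly, from 176, 171, 183 and 183 CPM to 201, 198, 203 and 188 CPM (0.15 ± 0.04, adjusted p = 0.0046). Of 14 topoisomerases and enzymes that clear trapped topoisomerase 3 rose and 3 fell. TDP1, which cuts the enzyme from DNA, fell (-0.20), as did the nuclease MUS81 (-0.28). Of 12 tested genes that activate or export irinotecan 25.0% were called, near the 28.1% of all genes. The efflux pump ABCB1 rose, from 0.324, 0.0828, 0.474 and 0.226 CPM to 0.532, 0.552, 1.23 and 0.733 CPM (1.45 ± 0.39). The level of ABCB1 was low in every library. ABCC3 (-0.45) and the activating esterase CES2 (-0.18) fell, the latter not on scaling by library sizes alone (adjusted p = 0.056).

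Interferon response genes rose in 15 of 38 cases and fell in 3 (median 0.29), the latter in only 1 without DMSO replicate 2 or without any 1 combination library. IFIT3, an antiviral effector, stood at 9.47, 9.19, 7.78 and 11.3 CPM with DMSO and 13.1, 15.0, 16.7 and 16.7 CPM with the combination (0.70 ± 0.11, adjusted p = 1.40e-05). IFITM2 (1.11 ± 0.15), IFI44 (0.40), the nucleotide hydrolase SAMHD1 (0.37), IRF1 (0.47), ISG15 (0.33) and the RNA sensor DDX58 (RIG-I, 0.31) rose. STAT2 (-0.14) and PARP14 (-0.25) fell. With a minimum fold of 1.2, 4 of the list were called higher. Of 12 tested sensors and interferon receptors 2 rose, TMEM173 (STING, 0.23) and JAK1 (0.14), and none fell. The share called, 16.7%, was under the 28.1% of all genes.

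HLA class I rose with them. Of 15 genes of antigen presentation 9 rose and none fell (median 0.26). B2M stood at 1199, 1226, 1276 and 1275 CPM with DMSO and 1523, 1494, 1617 and 1508 CPM with the combination, without overlap. HLA-E (0.35), HLA-B (0.51), HLA-C (0.23) and HLA-F (0.62) rose, as did TAP2, a peptide transporter (0.27). HLA genes share sequence, so how their reads were divided is uncertain. The immune cell markers summed to 1.75 ± 0.41 CPM of the library totals with DMSO and 1.87 ± 0.56 with the combination (SD, n = 4, exact permutation p = 0.714).

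NF-kB factors, their feedback genes and chemokines rose in 11 of 24 cases and fell in 4 (median 0.18). Beside CXCL8, the neutrophil chemokines CXCL3 and CXCL2 rose (1.86 ± 0.29 and 1.29 ± 0.33), CXCL2 from 0.216, 0.580, 0.197 and 0.581 CPM to 0.912, 0.827, 1.30 and 0.855 CPM. CXCL3 too lay at a low level, under a mean log2 CPM of 1. RELB (0.87) and NFKB2 (0.48), the factors of the noncanonical arm, ICAM1 (0.87), the cytokine IL1A (1.16) and the inhibitor TNFAIP3 (0.38) rose. LIF, a cytokine known for keeping stem cells undifferentiated, went the other way, from 124, 130.2, 108 and 126 CPM to 74.0, 71.9, 68.4 and 79.1 CPM (-0.73 ± 0.06, adjusted p = 3.70e-10). CCL2, which draws monocytes, fell (-0.17). IL6 read -0.16 and did not pass (adjusted p = 0.65).

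Immediate early genes were divided, 7 higher and 8 lower of 22 (median -0.01). MYC fell from 98.7, 102, 96.9 and 107 CPM to 69.7, 65.6, 73.8 and 65.0 CPM (-0.56 ± 0.05, adjusted p = 2.00e-10), with JUN (-0.37), EGR1 (-0.28), FOSL1 (-0.28) and FOSL2 (-0.26). NR4A1, an orphan nuclear receptor (0.98), JUNB, KLF10 (0.29) and IER5 (0.31) rose. The feedback genes of ERK signalling rose in 9 of 21 cases and fell in 4. DUSP phosphatases were 7 of the 9 rises, namely DUSP4 (0.65 ± 0.04), DUSP2 (1.03), DUSP5 (0.43), DUSP10 (0.40), DUSP1, DUSP7 and DUSP14, while SPRY1 (-0.32), SPRY2 (-0.23) and PHLDA1 (-0.50) fell. In the EGF family 3 of 12 rose and 1 fell: HBEGF, from 2.99, 2.77, 3.47 and 3.10 CPM to 8.93, 9.77, 7.43 and 9.69 CPM, BTC (0.93) and the receptor ERBB3 (0.64) rose and NRG1 fell (-0.21).

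Glycolysis genes fell where they changed. Of 23 genes 18 fell and none rose (median -0.23), although only 1 kept a call with a minimum fold of 1.2. ENO1, enolase, stood at 6762, 5982, 6428 and 6079.8 CPM with DMSO and 4883, 4497, 4448 and 4701 CPM with the combination (-0.45 ± 0.04, adjusted p = 1.68e-10). The glucose carrier SLC2A1 (-0.32), PKM (-0.30), GAPDH (-0.31), PGK1 (-0.31), PFKP (-0.30) and GPI (-0.29) fell by similar amounts. LDHA, which makes lactate, read 0.09 and did not pass (adjusted p = 0.31). ENO1, PKM, GAPDH and PGK1 are also among the abundant genes whose share of the counts was lower in the combination libraries.

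Targets of hypoxia-inducible factors fell in 13 of 25 cases and rose in 3 (median -0.22), the latter in only 1 without combination replicate 1 or 4. VEGFA, the main signal for new vessels, read 511, 513, 472 and 541 CPM with DMSO and 320.0, 306, 313 and 359.7 CPM with the combination (-0.65 ± 0.06, adjusted p = 2.19e-07). ADM (-0.44), APLN (-0.63), the carbonic anhydrase CA9 (-0.50) and the mitophagy receptors BNIP3 (-0.20) and BNIP3L (-0.30) fell. EPAS1, which encodes HIF-2α, rose (0.70 ± 0.07), and HIF1A fell slightly (-0.12). Of 22 YAP and TEAD factors and targets 4 rose and 8 fell: AMOTL2 fell from 299.7, 291, 283 and 293 CPM to 181, 174, 189.7 and 179 CPM (-0.69 ± 0.04), and CYR61 fell too (-0.30), while the clotting starter F3 (0.91) and ANKRD1 (0.64) rose.

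Matrix genes rose on balance, with 12 of 31 collagens, laminins and glycoproteins higher and 4 lower (median 0.12). Beside COL1A1, FN1 and THBS1, the basement membrane genes NID2 (0.74), HSPG2 (0.46), LAMB1 (0.25) and COL4A1 (0.20) rose. COL8A1 (-0.41) and COL6A1 (-0.27) fell. Of 28 tested proteases and inhibitors 7 rose and 7 fell. PAPPA, which stood at 23.6, 25.2, 27.1 and 24.7 CPM with DMSO and 10.9, 11.5, 10.8 and 10.6 CPM with the combination, MMP2 (-0.30) and ADAM12 (-0.47) were lower. The inhibitors TIMP3 (0.93 ± 0.08), TIMP2 (0.26) and SERPINE2 (0.55) and the protease MMP7 (1.82 ± 0.41) were higher. MMP7 lay under a mean log2 CPM of 1, where counts are few.

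**Figure D2:**
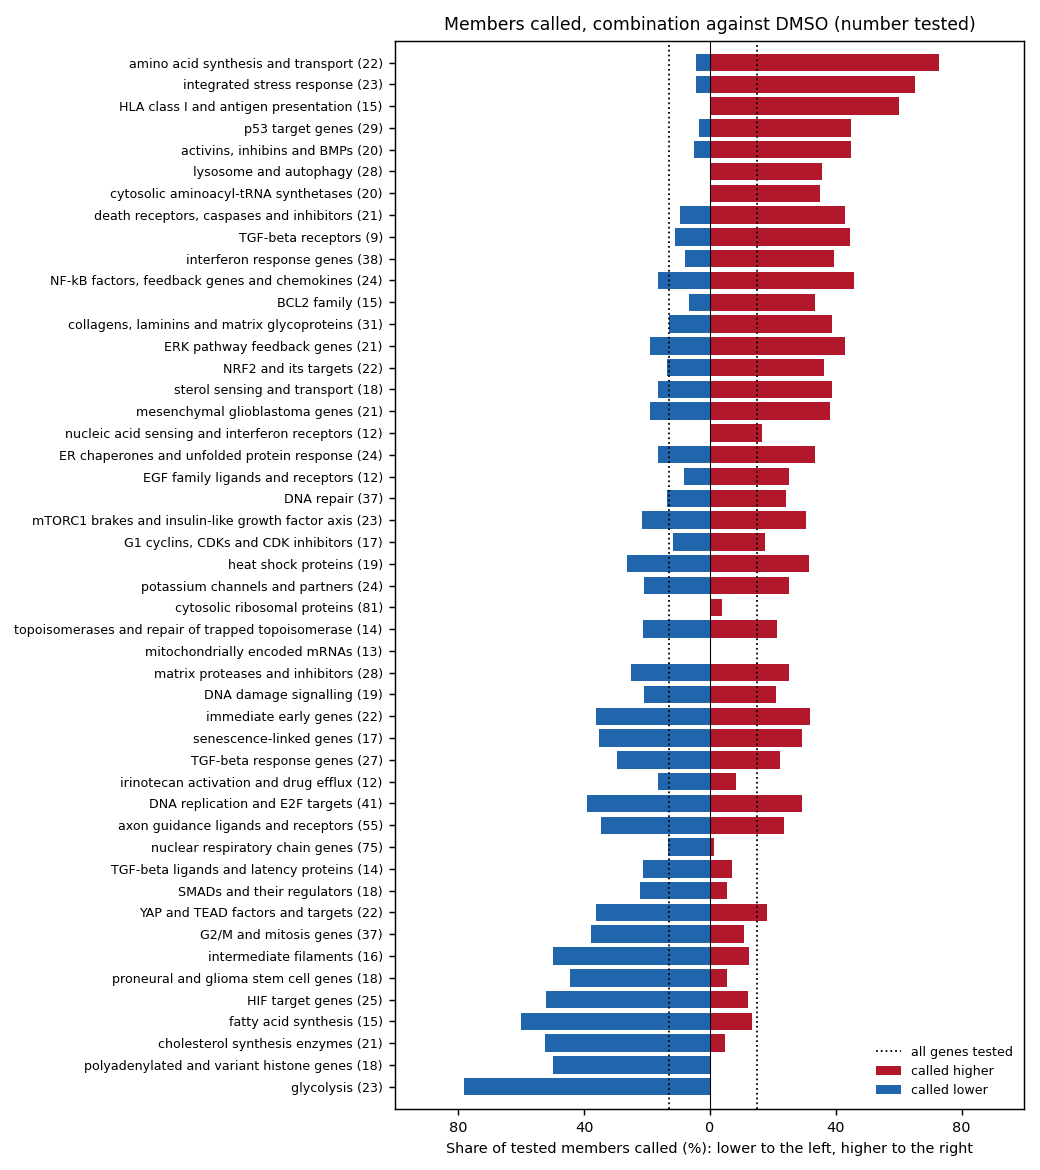
Share of tested members called higher (right) and lower (left) with the combination against DMSO, in percent, for each gene list shown. Dotted lines mark the shares over all genes tested, 15.1% higher and 13.0% lower. Glycolysis reaches farthest to the left with 18 of 23 members, and amino acid supply farthest to the right with 16 of 22.

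Of 18 proneural and glioma stem cell genes 8 fell and 1 rose (median -0.17). SOX2, a stem cell factor, read 376, 370.4, 402 and 387 CPM with DMSO and 297, 286, 309 and 297 CPM with the combination (-0.37 ± 0.04). SOX9 (-0.40), POU3F2 (-0.38), the lipid carrier FABP7 (-0.55) and the receptor PDGFRA (-0.44) fell, and the Notch ligand JAG1 rose (0.48). Mesenchymal glioblastoma genes were divided, 8 higher (5 without DMSO replicate 2) and 4 lower of 21: CD44, VIM and ANXA2 fell, while EMP3 (0.42), MET (0.32) and CHI3L1 (0.48) rose.

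Of 16 intermediate filament genes 8 fell and 2 rose (median -0.19). GFAP, NEFL, NES (-0.39) and VIM fell together, VIM from 2085, 1912, 1928 and 2014 CPM to 1583, 1493, 1445 and 1546 CPM (-0.39 ± 0.04). Lamins LMNA (-0.23), LMNB1 (-0.22) and LMNB2 (-0.16) fell as well. The keratin pair KRT8 (0.39) and KRT18 (0.23), known from simple epithelia, rose, and both have many pseudogenes that may share reads. Epithelial markers, mostly these keratins, summed to 425 ± 21.7 CPM of the library totals with DMSO and 558 ± 32.2 with the combination (SD, n = 4, exact permutation p = 0.0286). CLDN4 was called higher too (1036 and 1462 counts, DMSO first), and CDH1 had 19 and 9 counts. EPCAM, which defines epithelium, had 2 counts over the DMSO and 2 over the combination libraries.

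Axon guidance changed in both directions. Of 55 genes 13 rose and 19 fell. SEMA7A, a membrane-bound semaphorin, rose from 6.02, 4.64, 5.53 and 5.13 CPM to 12.4, 11.3, 11.3 and 11.0 CPM (1.11 ± 0.10), and the netrin antagonist DRAXIN by 0.84. Apart from SEMA5B and PLXNA4, the falls included NTN4 (-0.42), SLIT2 (-0.41), SLIT3 (-0.36), EPHA3 (-0.48) and UNC5C (-0.41). Of 24 tested potassium channels and partners 6 rose and 5 fell: KCNG1 rose (1.10 ± 0.12) beside KCNK6, and the glial channel KCNJ10 (-0.73 ± 0.08) and KCNN4 (-0.53) fell beside KCNIP1.

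Among NRF2 targets, which protect against oxidants, 8 of 22 rose and 3 fell. HMOX1, haem oxygenase, went from 12.9, 10.7, 12.1 and 12.9 CPM to 26.4, 26.5, 23.3 and 23.4 CPM (1.03 ± 0.09), TXNRD1 rose by 0.26, and the pentose phosphate enzyme TKT fell (-0.38). Lysosome and autophagy genes rose in 10 of 28 cases and fell in none (median 0.08): MAP1LC3B (0.48 ± 0.04), the sialidase NEU1 (0.47), GPNMB (0.75) and WIPI1 (0.58) led. Of 19 heat shock genes 6 rose and 5 fell (2 or 3 without any 1 library other than DMSO replicate 2 and combination replicate 2), and CRYAB had the largest change (0.87 ± 0.28). Of 23 mTORC1 brakes and genes of the insulin-like growth factor axis 7 rose, with IGFBP4 (0.61) and DEPTOR (0.49) beside SESN2, and 5 fell (3 without DMSO replicate 1).

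Histone genes with polyadenylated transcripts fell in 9 of 18 cases and rose in none (median -0.16). H1F0 stood at 345, 332, 371 and 321 CPM with DMSO and 186, 184, 180.1 and 186 CPM with the combination (-0.89 ± 0.04), and H1FX (-0.68), HIST1H1C (-0.65) and H2AFJ (-0.42) fell. Of 17 tested genes linked to senescence 5 rose and 6 fell, with LMNB1 (-0.22) and HMGB2 (-0.22) lower, CDKN1A and GDF15 higher, and IL6 not called.

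Of 81 ribosomal protein genes 3 rose, none fell, and the median was -0.02. The calls of RPL12 (without any 1 of DMSO replicates 2 and 3 and combination replicates 1, 2 and 4) and RPL39L (without any 1 library other than DMSO replicate 1 and combination replicate 4) ended on leaving out 1 library, with adjusted p up to 0.14 and 0.11. The 13 mitochondrially encoded mRNAs had a median of -0.37 and all read lower, yet none was called with edgeR or DESeq2, nor was any at an unadjusted p under 0.05. MT-ATP6 read 1993, 2873, 1506 and 2908 CPM with DMSO and 1365, 1692, 1688 and 1980.2 CPM with the combination (-0.46 ± 0.23, adjusted p = 0.16). Without DMSO replicate 3, the lowest of the DMSO libraries, MT-ATP6 and MT-ATP8 were called (adjusted p = 0.048 and 0.047). Of 75 nuclear respiratory chain genes 1 rose and 10 fell (median -0.04), NDUFA13 (-0.63) and NDUFA11 (-0.43) by most.

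Calls were also counted by the length of the gene. Of 603 protein-coding genes that span over 300 kb, 10.4% rose and 27.4% fell (median -0.07), while of 4398 that span 30 to 100 kb 21.3% rose and 12.1% fell (median 0.03). Where the mean log2 CPM reached 2, 11.5% of the longest rose and 34.8% fell. With irinotecan alone the median of the longest genes was -0.10 and with simvastatin alone -0.03, measured against the same DMSO libraries. Sorted by exonic bases in place of span, the longest genes, over 10 kb, had a median of -0.01, with 16.3% higher and 17.6% lower. Long noncoding genes were called lower in 9.30% and higher in 3.34% of 2096 cases (median -0.12), at a median level far under that of protein-coding genes.

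**Figure D3:**
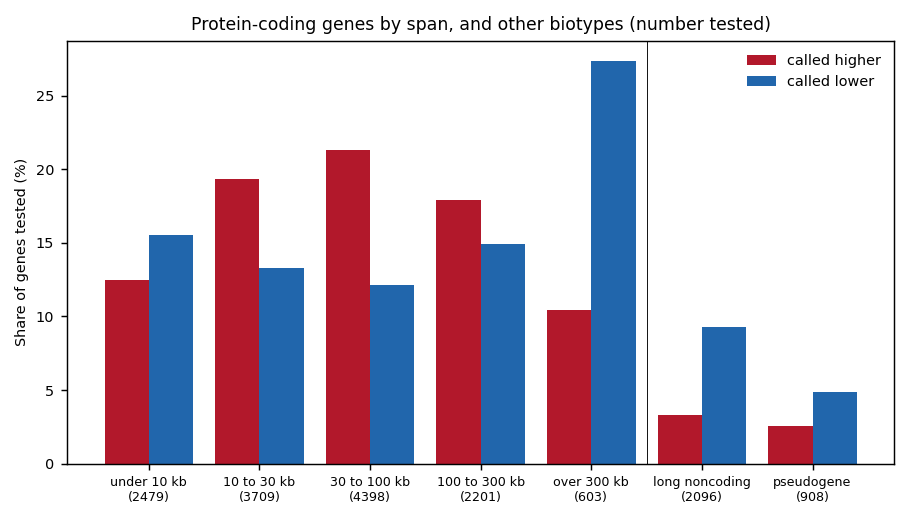
Percent of genes called higher and lower with the combination against DMSO, by the span of protein-coding genes and by biotype. Bars start at 0. Genes over 300 kb have the tallest bar of lower calls, 27.4%, and the shortest of higher calls among the span classes, 10.4%.

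The single drugs, measured against the same 4 DMSO libraries, called 6.00% of genes with simvastatin and 24.1% with irinotecan. Since the control libraries are shared, the values are set side by side and no overlap is drawn from them. Compared directly, 989 genes (5.94%) differed between both drugs and irinotecan alone, and 4259 (25.6%) between both drugs and simvastatin alone. The combination was called as departing from the sum of both single effects on the log2 scale in 2 genes (0.0120%). That test combines the means of 4 groups, so its error is wider than that of a comparison of 2 groups. Genes it did not call are therefore not shown to be additive.

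The genes were sorted into the following sets after their values were seen. Some changed most where simvastatin was present. CHAC1 had log2 fold changes of 1.24 with simvastatin, 0.14 with irinotecan and 0.99 with both. INHBE had 2.72, 1.02 and 2.71 in that order, and CTH 0.99, 0.12 and 0.88. Of the 23 stress response genes, 14 were higher with the combination than with irinotecan alone and none lower, against 5.94% of all genes called either way. Of the 22 amino acid genes 18 were higher than with irinotecan alone, while 13 were lower than with simvastatin alone, where 25.6% of all genes were called either way.

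Others changed most where irinotecan was present. GFAP had -0.19 with simvastatin, -1.10 with irinotecan and -1.14 with both, and its difference between the combination and irinotecan alone was -0.04 (adjusted p = 0.66). KCNIP1 had -0.26, -1.50 and -1.53, BMP4 -0.03, 0.99 and 1.01, and IFIT3 -0.12, 0.80 and 0.70. Of 38 interferon response genes 22 were higher with the combination than with simvastatin alone and none lower, against 25.6% of all genes called either way. Against irinotecan alone 3 were lower and none higher, near the 5.94% of all genes called either way. MCM6 (-0.12, -0.50 and -0.61) stood farther from DMSO with both drugs than with irinotecan alone, a difference of -0.12 (adjusted p = 0.035).

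In a further set the single drugs pointed opposite ways and the combination lay between. HMGCS1 had 0.41 with simvastatin, -0.91 with irinotecan and -0.32 with both, VEGFA 0.32, -0.79 and -0.65, LIF 0.50, -1.09 and -0.73, and STC2, a secreted glycoprotein, 1.00, -0.55 and 0.35. HMGCS1, LIF and STC2 with both drugs differed from each single drug as well, whereas VEGFA differed from irinotecan alone by 0.14 and did not pass (adjusted p = 0.24). Glycolysis showed the same order as a list, with medians of 0.11 with simvastatin, -0.36 with irinotecan and -0.23 with both, 8 of 23 genes being higher than with irinotecan alone and 20 lower than with simvastatin alone. For the hypoxia targets the medians were 0.31, -0.41 and -0.22, and for the cholesterol enzymes 0.11, -0.22 and -0.13.

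Other genes rose with each drug and most with both. GDF15 had 1.21 with simvastatin, 1.45 with irinotecan and 1.94 with both, above each single drug (0.50 over irinotecan, adjusted p = 8.65e-04, and 0.73 over simvastatin, adjusted p = 2.35e-06). GPRC5A had 0.96, 1.02 and 1.54, CDKN1A 0.24, 0.59 and 0.79, and KDELR3 0.67, 0.46 and 1.09. Each of the 3 was higher with both drugs than with irinotecan alone (adjusted p = 6.79e-06, 0.0027 and 1.69e-09) and than with simvastatin alone (adjusted p = 2.39e-07, 2.89e-11 and 4.87e-07). SMAD7 had 0.75 (adjusted p = 0.19), 0.55 (adjusted p = 0.24) and 1.33, so only its change with both drugs passed. Its differences from irinotecan alone, 0.78 (adjusted p = 0.099), and from simvastatin alone, 0.58 (adjusted p = 0.13), did not pass. The 37 mitotic genes did not follow this order as a list, with medians of -0.11 with simvastatin, 0.03 with irinotecan and -0.07 with both. Of them 13 were lower with the combination than with irinotecan alone and none higher, against 5.94% of all genes called either way. Compared with simvastatin alone 13 were higher and 6 lower, where 25.6% of all genes were called either way. KIF20A fell with each drug and most with both (-0.18, -0.20 and -0.42), unlike the list.

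The genes in which both drugs were called as departing from the sum of the single effects were CXCL8 and DDIT4. CXCL8 had 5.02 with simvastatin, 2.09 with irinotecan and 4.63 with both, so the combination lay 2.48 log2 units under the sum (adjusted p = 0.037). DDIT4, another brake on mTORC1, had 0.76, -0.33 and -0.02, which lay 0.44 under the sum (adjusted p = 0.037). Between both drugs and simvastatin alone CXCL8 had a difference of -0.39, which did not pass (adjusted p = 0.058).

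**Figure D4:**
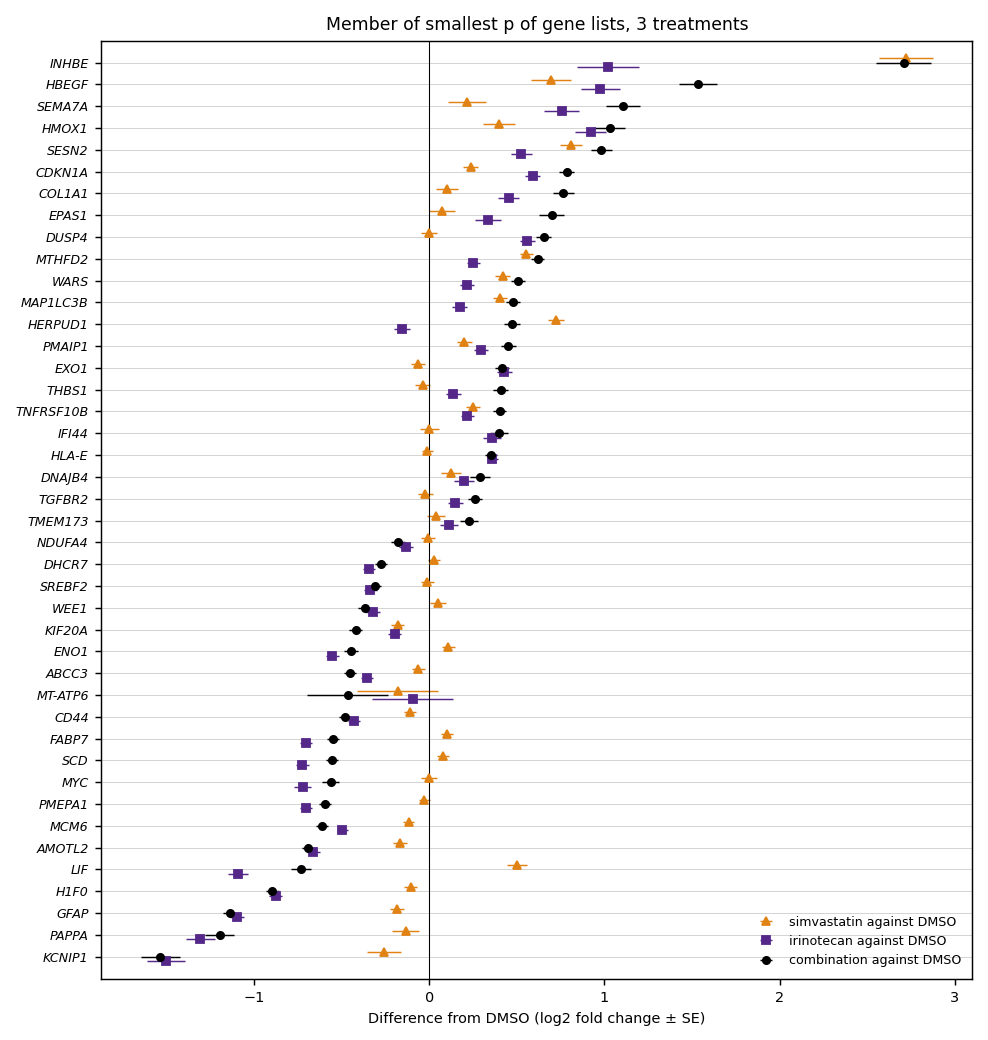
Log2 fold change against DMSO, with its standard error, of the member with the smallest p of each gene list shown, for simvastatin, irinotecan and the combination. The 3 treatments share the 4 DMSO libraries. CXCL8 is not the member shown for NF-kB, whose smallest p is that of LIF, and LIF is above 0 with simvastatin (0.50) and below 0 with irinotecan (-1.09) and both (-0.73).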

How the data were processed

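Poly(A) RNA of 16 libraries in 4 groups of 4 was measured as counts, whole numbers of reads per gene that the authors deposited without normalization. Per the submitters' processing notes, FastQC, STAR 2.7.1, DESeq2 and the genome build GRCh38 were used. Not given in the sources used here are the annotation release, the strand setting and how reads were counted. Of the 58243 gene IDs, 57980 were in GENCODE 29, which gave coordinates and lengths. No value column belonged to another series.

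In R 4.3.3, edgeR 4.0.16 (with limma 3.58.1) kept 16647 genes by filterByExpr (minimum count 10, minimum total 15), scaled libraries by TMM, and fitted robust quasi-likelihood models to all 16 libraries with a term per group. F tests were two-sided, with Benjamini-Hochberg adjustment over all genes, and standard errors came from F. The common biological coefficient of variation was 5.25%. Summed marker levels and shares were compared by two-sided exact permutation tests. The fit was tested on simulated data. Libraries of a group differed by more than sampling noise, chi-squared per degree of freedom being 2.60 to 15.5. Replicate numbers 1 to 3 of DMSO and the combination correlated by 0.077, 0.092 and 0.077, under 0.1, so they were not taken as pairs, and the unnumbered library of each group was called replicate 4.

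The comparison, the gene lists and the rule for named genes were chosen with earlier results of these data known. The 49 lists held 1279 entries, some in several lists. The rule named the 15 largest called rises and the 15 largest falls above a mean log2 CPM of 1, the 10 with the smallest p, the 10 with the largest rise and fall in CPM, up to 5 members of each list with the smallest p, and genes of the drug targets and of TGF-β signalling, 269 in all. List members that the rule did not name are given as examples chosen after their values were seen. Some named genes and 1 list are not reported here. Tried beside this were library sizes alone, median-ratio size factors, DESeq2 1.42.0, other filters, a stricter threshold, a minimum fold, fewer libraries, a replicate block and leaving out each library. A count of gene lengths in expressed genes alone was added after seeing the data. Promoter windows came from RefSeq on GRCh38.p14. Python 3.11.15 with matplotlib 3.10.9 drew the figures.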

Additional observations from a re-analysis of the deposited data

Results flagged for a closer look

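TGFBR2 in combination replicate 3 stood at 111 CPM, apart from the other 3 combination libraries at 99.6 to 101.5 CPM. TGFBR1 in combination replicate 4 stood at 56.7 CPM, below the others at 60.0 to 60.4 CPM. Of 170 groups of 4 libraries examined, these 2 held such an outlying library, where chance gives about 1 in 20.

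CXCL8 and DDIT4 with both drugs departed from what the single drugs added up to. The departure was -2.48 on the log2 scale for CXCL8 and -0.44 for DDIT4 (edgeR interaction, adjusted p = 0.037 for each). CXCL8 was higher than with DMSO in 4 of 4 combination libraries, whereas the combination libraries overlapped those of DMSO for DDIT4.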

How the results depend on the processing

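The combination against DMSO gave 3032 calls at an adjusted p under 0.01 (1318 lower) and 868 with a minimum fold of 1.2 (560 higher and 308 lower). Scaled by library sizes alone it gave 3868 higher and 1401 lower. Called genes changed at least 2-fold were 315 in the main fit. A separate fit to genes with a CPM of at least 1 in at least 4 libraries, a filter that drops low genes, gave 167. DESeq2 called 4506 genes, and edgeR called 4657 with median-ratio size factors, 4408 without the filter on low counts and 4643 with the 8 compared libraries alone. The excess of rises over falls in the main fit, 2518 against 2159, did not hold in every setting. With the 8 compared libraries alone 2303 genes were higher and 2340 lower. The fit to genes with a CPM of at least 1 gave 2271 higher and 2381 lower. With 1 library left out, the called genes were 3998 to 4615, the higher 2139 to 2436, the lower 1857 to 2179, and those changed at least 2-fold 300 to 394.

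At an adjusted p under 0.01 and with a minimum fold of 1.2, in that order, simvastatin against DMSO gave 558 and 84 calls, irinotecan against DMSO 2587 and 802, the combination against irinotecan 529 and 56, and the combination against simvastatin 2681 and 728. Among the 12 numbered libraries, simvastatin against DMSO gave 513 calls with no replicate block. With the replicate block on those libraries the combination gave 4936 calls against DMSO (3638 without the block) and 2016 against irinotecan (707 without the block). The replicate numbers were not shown to pair the libraries. Same-numbered libraries of the combination and irinotecan correlated by -0.080 to 0.037, and those of DMSO and simvastatin by 0.030, 0.162 and 0.141. In none of the 6 pairs of groups did all 3 numbers correlate by over 0.1, a floor chosen here. Whether a weaker pairing exists was not tested.

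The 269 named genes were looked at in 18 settings, and 4 had no value with the filter of a CPM of at least 1. No named gene called in the main fit or in a setting changed direction in that setting. For genes called in neither, a change of direction was not counted. Of the 250 called, 112 lost the call in at least 1 setting, all 112 with a minimum fold of 1.2, and 13 on leaving out 1 library. At 24159673 counts or more a library, 8.64% of genes under a mean log2 CPM of 0 were called, so small changes of low genes were not detectable at this depth.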
